A study of Mus musculus with 96 samples.

Results

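Hmgcs1, Sqle, Idi1, Fdft1, Fdps, Cyp51, Lss and Insig1 were examined in single EL4 cells with and without an shRNA against Ctcf. They were taken by symbol, 8 of the 24057 genes in the TPM table, and all 8 had a value in some cells and passed the filter on low values. EL4 is a mouse T-lymphoma line. A retrovirus delivered GFP together with an shRNA, either against luciferase (shLuc, called WT) or against Ctcf (shCTCF, called CTCF-KD). GFP-positive cells were sorted after 5 days, and the methods state that knockdown was then checked by RT-qPCR and Western blotting. By the same methods, populations with efficient knockdown went on to capture on the Fluidigm C1 system. There were 4 cultures, with shLuc #1 and shCTCF #1 in experiment 1 and shLuc #2 and shCTCF #2 in experiment 2. From each, 24 cells picked by the authors for the highest quality were sequenced. WT cells thus also carried a virus, GFP and a hairpin. Each culture had its own integrated fluidics circuit, so culture and circuit cannot be told apart, and the culture was taken as the replicate (2 per condition). The methods list 2 hairpins against Ctcf, and whether shCTCF #1 and #2 carried different hairpins or repeated 1 of them is not given in the sources used here.

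Cholesterol is built from acetyl-CoA through the mevalonate pathway. Hmgcs1 acts at the entry, Idi1 and Fdps make the isoprenoid building blocks, Fdft1 joins farnesyl units into squalene, and Sqle, Lss and Cyp51 turn squalene into the first sterols. Insig1 is no enzyme: it is a membrane protein of the endoplasmic reticulum that holds back SCAP and the SREBP transcription factors when sterols are plentiful, and SREBP-2 drives the genes of this pathway, of which Insig1 is itself a target. None of the 8 is a receptor for cholesterol uptake, so uptake genes were followed in a separate list.

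SREBPs are known to bind sterol regulatory elements (SRE) next to CCAAT and GC boxes, and promoter sequence is shown for members whose windows were in the RefSeq table. Windows from 250 bases before to 50 after the start (GRCm38.p6) were found for 5 of the 8 members, Hmgcs1, Idi1, Cyp51, Lss and Insig1. The letters searched on both strands were TCACNCCAC (SRE), TCACGTGA (sterol E-box), GGGCGG (GC box) and those of the CCAAT box. Hmgcs1 is shown because its window alone among the 5 held the SRE letters, and Lss, Insig1 and Cyp51 are shown for comparison, each from 250 bases upstream to the base before the earliest annotated start, with matches of any of these motifs in capitals.
Hmgcs1, chr13:119690101-119690350, + strand: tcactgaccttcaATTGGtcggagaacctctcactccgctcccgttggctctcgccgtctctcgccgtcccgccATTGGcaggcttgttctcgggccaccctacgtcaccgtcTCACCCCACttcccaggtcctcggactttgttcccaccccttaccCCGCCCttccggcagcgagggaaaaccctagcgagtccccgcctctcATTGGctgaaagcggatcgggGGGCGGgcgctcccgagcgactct
Lss, chr10:76531355-76531587, + strand: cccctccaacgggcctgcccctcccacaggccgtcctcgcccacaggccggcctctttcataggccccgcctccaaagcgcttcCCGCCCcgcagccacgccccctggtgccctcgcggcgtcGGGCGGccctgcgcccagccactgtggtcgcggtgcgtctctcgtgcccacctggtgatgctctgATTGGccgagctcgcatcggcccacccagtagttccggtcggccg
Insig1, chr5:28071162-28071362, + strand: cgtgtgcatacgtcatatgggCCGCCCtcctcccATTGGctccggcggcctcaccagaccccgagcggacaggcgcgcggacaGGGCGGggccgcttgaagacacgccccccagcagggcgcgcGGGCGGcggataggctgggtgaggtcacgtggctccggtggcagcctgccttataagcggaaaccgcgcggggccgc
Cyp51, chr5:4104747-4104947, - strand: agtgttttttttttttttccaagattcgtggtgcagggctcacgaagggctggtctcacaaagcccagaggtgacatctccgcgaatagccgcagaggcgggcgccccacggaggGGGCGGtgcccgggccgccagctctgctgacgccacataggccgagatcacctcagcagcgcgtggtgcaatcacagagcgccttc
The SRE letters of Hmgcs1, TCACCCCAC, began 137 bases before its start, and 1.24% of all 32851 windows held an SRE match. A CCAAT box was present in all 5 windows of the members, against 37.4% of all windows, and a GC box in all 5, against 35.7%. Other genes of sterol synthesis, uptake and transport had 25 windows. Of these, 16 held a CCAAT box, 16 a GC box and 1 the SRE letters, so the boxes were not particular to the members. The CCAAT box of Cyp51, at base -29, lies past the printed stretch. No window of the 5 held the sterol E-box letters, which were in 0.974% of all windows. No matches overlapped each other. These matches describe letters and not bound sites. Only these exact letters were searched, so a window without a match is not shown to lack such an element.

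In all, 95 of 96 cells had at least 3000 genes with a value, and 1 cell of shLuc #2, with 81 genes, was left out. Median recovered reads per cell ranged from 131098 in shCTCF #2 to 247586 in shLuc #1, and cells of the 2 CTCF-KD cultures had more genes with a value (medians 6172.5 and 5656) than those of the 2 WT cultures (4771 and 4635). All 8 T cell markers listed had a value in most cells of every culture, while markers of B cells, erythroid cells and fibroblasts summed to at most 4.13 mean TPM. The myeloid markers summed to 31.3 to 52.1 mean TPM, mostly from Cd68. Mean TPM of Ctcf was 60.3 in shLuc #1 and 16 in shCTCF #1, but 37.1 in shLuc #2 and 44.9 in the culture labelled shCTCF #2. In experiment 2 the mean of the Ctcf mRNA was thus not lower than its control, at 121.0% of it. The 95% Poisson intervals of its recovered reads, scaled to the total of each culture, overlapped between shLuc #2 and shCTCF #2. A rise was therefore not shown. The knockdown that the methods state was checked before capture was not seen in this mean either. The level, CV and correlation results are therefore also given for experiment 1 and experiment 2 alone.

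Summed over the 8 genes, mean levels were lower in both CTCF-KD cultures than in both WT cultures, although no single member passed the test and Idi1 overlapped. The summed TPM of the 8 genes averaged 1222 per cell in shLuc #1 and 1042 in shLuc #2, against 353.8 in shCTCF #1 and 597.2 in shCTCF #2. Cells with a sum above 1000 TPM numbered 8 of 24, 9 of 23, 1 of 24 and 4 of 24 in the same order. The cells overlapped widely between cultures, as the sums ran from 110.2 to 4679 in shLuc #1 and from 80.2 to 1177 in shCTCF #1.

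**Figure D1:**
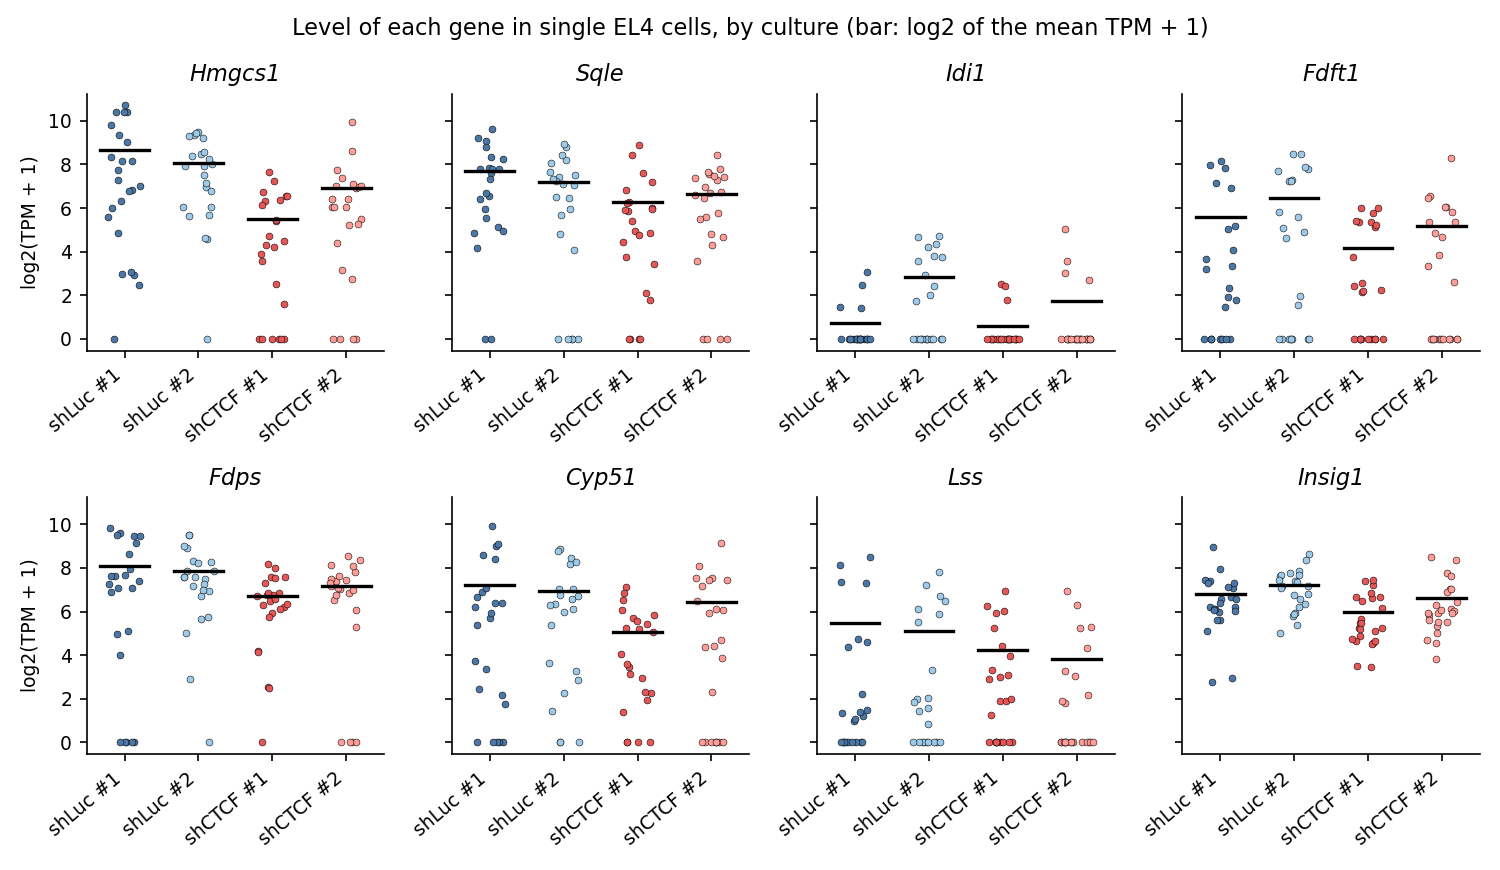
Level of each of the 8 genes in single cells, as log2(TPM + 1), by culture; each point is 1 of the 95 cells kept and each bar is the log2 of the mean TPM of the culture plus 1. For 7 genes both CTCF-KD bars lie below both WT bars, Idi1 is at 0 in most cells, and Insig1 has no cell at 0.

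Hmgcs1, the synthase that makes HMG-CoA, lies on the + strand of chr13:119690379-119708260 (GRCm38, GENCODE). It had the highest mean TPM of the 8 in both WT cultures, although its median over cells in shLuc #1 was below those of Sqle and Fdps. In shLuc #1 its lowest, median and highest TPM over cells were 0, 141.2 and 1677, and in shLuc #2 they were 0, 243.0 and 712.5. In shCTCF #1 they were 0, 20.2 and 199.7, and in shCTCF #2 they were 0, 65 and 989.2. The medians of both CTCF-KD cultures were thus below those of both WT cultures. The cells of both CTCF-KD cultures nevertheless lay within the range of shLuc #1 cells, and the highest of each exceeded the shLuc #1 median. Mean TPM was 398.9 and 270.3 in the WT cultures, and 44.5 and 121.4 in the CTCF-KD cultures, or 11.2% of control in experiment 1 and 44.9% in experiment 2. In experiment 1 this was the lowest percentage of the 8, while in experiment 2 Idi1 (38.4%), Fdft1 (39.9%) and Lss (40%) had lower ones. In RPM, reads scaled to the total recovered in a culture, the 4 values were 836.9 (95% Poisson interval 814.2 to 860.0), 500.6 (482.1 to 519.7), 86.5 (79 to 94.6) and 221.2 (205.3 to 238.0), so counting error was small beside the gap between the cultures of 1 condition. The antisense gene Gm48342 shares 557 of its 4594 exonic bases.

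Idi1 and Fdps act next, as the isomerase of isopentenyl diphosphate and the synthase of farnesyl diphosphate. Idi1 (chr13:8885501-8892451, + strand) was the lowest of the 8, with a median of 0 TPM in every culture and means of 0.641, 6.06, 0.487 and 2.32 in the 2 WT and then the 2 CTCF-KD cultures. These means rest on 6, 50, 5 and 11 recovered reads, and the groups overlapped. The processed pseudogene Gm13502 is identical to Idi1 over 684 bases, and since reads mapping to several places were dropped by the authors, the level of Idi1 is uncertain. Fdps (chr3:89093588-89101959, - strand) had mean TPM of 268.2 and 232.4 in WT and 102.3 and 143.8 in CTCF-KD cultures, and medians over cells of 159.7, 188.2, 92.2 and 140.0. Both of its CTCF-KD values were below both WT values. Fdps shares 1124 exonic bases with Gm43738 on its own strand and has processed pseudogenes of up to 98.9% identity, so its reads could also have been lost or split.

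Fdft1, squalene synthase (chr14:63145150-63179578, - strand), had mean TPM of 47.6 and 87.4 in the WT cultures and 16.8 and 34.9 in the CTCF-KD cultures. Its medians over cells were 3.45, 29.1, 3.69 and 7.06, so in experiment 1 the medians were close and the means differed through the upper cells. The highest cell had 282.3 TPM in shLuc #1 and 62.1 in shCTCF #1. Fdft1 shares 774 exonic bases with Ctsb on the opposite strand, and the strand setting of the counting was not given in the sources used here.

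Sqle, squalene epoxidase (chr15:59315077-59331192, + strand), shares no exonic bases with another gene. Its mean TPM was 205.5 and 143.5 in WT and 76.5 and 98.3 in CTCF-KD cultures, and its medians were 178.2, 131.0, 35.9 and 90.6. Means and medians were both ordered with the 2 WT cultures above the 2 CTCF-KD cultures. Lss, lanosterol synthase (chr10:76531588-76557138, + strand), had means of 43.6, 33, 18 and 13.2 TPM. Its medians were 1.24, 1.96, 2.83 and 0 TPM, and the 3 highest cells held 77.2%, 62.9%, 60% and 74.8% of its summed TPM, so the order of its means rests on few cells. Cyp51, lanosterol demethylase (chr5:4081145-4104746, - strand), had means of 146.7 and 121.2 TPM in WT cultures and 32.4 and 85.6 in CTCF-KD cultures, and medians of 54.9, 78.9, 13.3 and 23.

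Insig1 (chr5:28071363-28078662, + strand) was the steadiest of the 8. It had a value in all 95 cells, with the lowest cell at 5.75, 31.3, 9.97 and 13 TPM and the highest at 490.6, 393.7, 173.4 and 364.4 TPM, with the 2 WT cultures first. Its mean TPM was 110.4 and 148.3 in WT and 62.8 and 97.6 in CTCF-KD cultures, and its medians were 78.8, 140.8, 40.1 and 61.6. Mean TPM was 56.9% of control in experiment 1 and 65.8% in experiment 2, with a log2 change smaller than that of the 6 other members whose groups did not overlap.

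Compared over cultures, 7 of the 8 members (all but Idi1) were lower in both CTCF-KD cultures than in both WT cultures, against 16.9% of the 11980 genes tested. All 8 were lower in experiment 1 and in experiment 2 taken alone, against 26.7% of genes. The members were chosen with earlier results of these data known, so these shares are a description and not a test. On the log2(mean TPM + 1) scale, which understates changes of low genes, the log2 change (CTCF-KD minus WT) was -2.14 ± 0.53 (SE, n = 2 cultures per condition) for Hmgcs1, -1.37 ± 0.60 for Fdft1, -1.32 ± 0.54 for Cyp51 and -1.25 ± 0.60 for Lss. It was -1.04 ± 0.35 for Fdps, -0.98 ± 0.38 for Sqle, -0.70 ± 0.41 for Insig1 and -0.61 ± 0.96 for Idi1. The median of the 8 was -1.14, beside 0.04 over all genes tested, with -1.40 in experiment 1 and -0.89 in experiment 2. No member passed the test: adjusted p by limma ranged from 0.585 (Hmgcs1) to 0.912 (Idi1).

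With 2 cultures per condition limma called 0 of 11980 genes at an adjusted p under 0.05 (0% of genes), while 574 genes were higher and 338 lower at an unadjusted p under 0.05. Among the latter, 2.82% of all genes, were Hmgcs1, Sqle, Fdps and Cyp51. With the experiment as a replicate block 6 members were lower at an unadjusted p under 0.05, against 5.12% of genes, and again none passed after adjustment. Without shLuc #1 or without shCTCF #1 none of the 8 was lower at an unadjusted p under 0.05 (against 3.81% and 1.6% of genes), without shLuc #2 there was 1 (2.57%), and without shCTCF #2 there were 3 (1.25%). When the mean over cells of log2(TPM + 1) was used instead, the median of all genes moved to 0.23 and that of the members to -0.77, 6 members were lower in both CTCF-KD cultures, against 10.1% of genes, and limma called 44 genes higher and 2 lower, none of them a member.

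**Figure D2:**
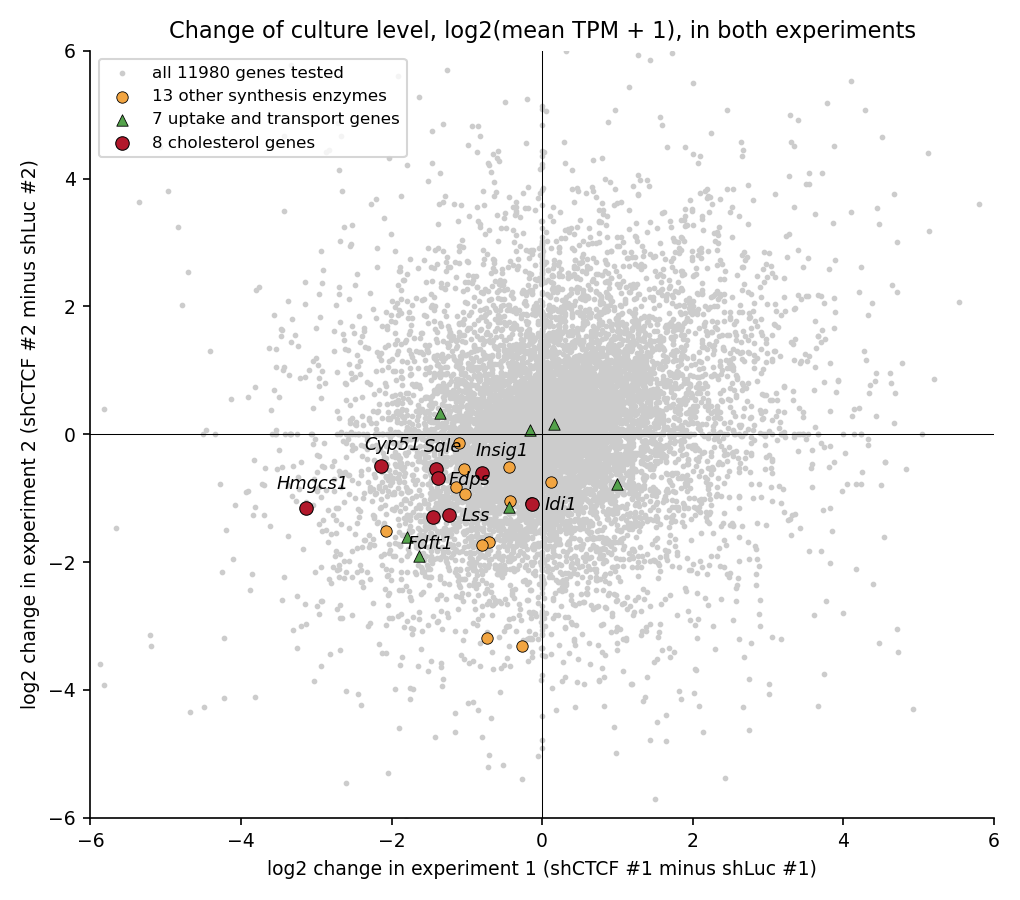
Change of each gene in experiment 1 (horizontal) and experiment 2 (vertical), as the log2 difference of mean TPM + 1 between the shCTCF and shLuc culture; grey points are all genes tested, 9 of which lie outside the axes. All 8 cholesterol genes (red) lie in the lower left quadrant, with 12 of the 13 other synthesis enzymes (orange) and 3 of the 7 uptake and transport genes (green). Of all genes tested, 26.7% were lower in both experiments.

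The other enzymes of the mevalonate pathway and of sterol synthesis had mostly lower levels too. Of 14 listed, 13 were tested, 10 were lower in both CTCF-KD cultures and 0 were higher in both, against 16.9% and 19.9% of all genes. Their median log2 change was -0.99. The list includes Ggps1, which overlapped between conditions and was also counted in the non-sterol isoprenoid branch below. Msmo1, a sterol methyl oxidase, had mean TPM of 228.0 and 291.3 in WT and 53.6 and 100.7 in CTCF-KD cultures. Among the kinases and the decarboxylase of mevalonate, Pmvk had 352.9 and 222.0 against 158.3 and 124.7, Mvd 104.3 and 81.1 against 59.5 and 23.8, and Mvk 48.9 and 46.8 against 43.9 and 21.8 TPM. These also did not overlap between conditions. Nsdhl and Dhcr7, of the later steps, and Hsd17b7, at most 8.12 TPM in any culture, were likewise lower in both. Sc5d overlapped (97.7 and 252.5 against 47.2 and 131.2), although it was lower within each experiment, and Ebp (114.3 and 174.2 against 124.3 and 103.6) differed in direction between the experiments. No enzyme of the list passed limma after adjustment.

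Genes of uptake and of cholesterol transport inside the cell were lower in part. Of 8 listed 7 were tested, 3 were lower in both CTCF-KD cultures and 0 higher in both, against 16.9% and 19.9% of all genes. The median log2 change of the 7 was -0.51. The 3 were Npc1 and, named here and in the lists below after their values were seen, Npc2 and Scarb1. Npc1, which exports cholesterol from lysosomes, had mean TPM of 30.6 and 16.9 in WT and 8.09 and 4.91 in CTCF-KD cultures. Stard4, a sterol carrier, overlapped, with 123.0 and 69.6 against 47.3 and 88.5 TPM.

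The regulators were less uniform. Of 12 genes of SREBP regulation 11 were tested, with a median log2 change of -0.17. In both CTCF-KD cultures 3 were lower (Srebf2, Insig2 and Mbtps1), against 16.9% of all genes. Only 1 was higher in both (Rnf145), against 19.9% of all genes. Srebf2, which encodes SREBP-2, had 66.9 and 55.6 TPM in WT and 29.3 and 50.0 in CTCF-KD cultures, and Insig2, the relative of Insig1, had 129.0 and 74.5 against 55.5 and 42.5. Both were thus lower in both, with log2 changes of -0.66 ± 0.49 and -1.0 ± 0.46. Srebf1 (55.2 and 22.7 against 22.8 and 23.1) and Scap (20.8 and 18.3 against 26.6 and 3.29) were not lower in both.

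Neighbouring pathways were counted in the same way. Of 12 fatty acid synthesis genes tested, 4 were lower (Acly, Scd1, Scd2 and Tecr) and 2 higher (Elovl1 and Hsd17b12) in both CTCF-KD cultures, with a median of -0.25. Of all genes, 16.9% were lower and 19.9% higher in both. Scd2, a desaturase, had 560.6 and 618.4 against 201.1 and 231.2 TPM, and Acly, which supplies acetyl-CoA, had 117.8 and 140.0 against 56.3 and 95.8. Fasn, the fatty acid synthase, overlapped at 55.2 and 30.5 against 36.1 and 33.4. Of 12 genes of the non-sterol isoprenoid branch 2 were lower (Coq2 and Fntb) and 4 higher (Dhdds, Nus1, Pggt1b and Rabggtb) in both, with a median of 0.43, against 19.9% of all genes higher in both. Of 5 efflux and storage genes tested 0 were lower and 1, Nceh1, was higher in both (median -0.58), against 16.9% and 19.9% of all genes. Of the cell cycle genes, 8 of 16 G1/S genes were higher in both CTCF-KD cultures and 0 lower (median 0.65), and 10 of 20 G2/M genes were lower in both and 0 higher (median -0.45), against 19.9% of all genes higher and 16.9% lower in both. None of these lists had a gene that passed limma after adjustment. The part of cell cycle in the member levels was not tested.

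Detection, the share of cells with TPM above 0, was lower in both CTCF-KD cultures for only 2 members, Hmgcs1 and Fdft1. Hmgcs1 had a value in 95.8% of shLuc #1, 95.7% of shLuc #2, 75% of shCTCF #1 and 83.3% of shCTCF #2 cells. Fdft1 had one in 62.5%, 65.2%, 58.3% and 54.2%. Of all genes tested, 5.96% had a lower share in both CTCF-KD cultures. The exact two-sided permutation p was 0.333 for each, which is the smallest that 2 cultures against 2 allow. Sqle (91.7%, 78.3%, 83.3% and 83.3%), Fdps (79.2%, 95.7%, 95.8% and 83.3%), Cyp51 (79.2%, 87%, 83.3% and 66.7%) and Lss (58.3%, 60.9%, 62.5% and 41.7%) overlapped, as did Idi1 (16.7%, 47.8%, 12.5% and 16.7%). The median difference in share (CTCF-KD minus WT) was 5.98 percentage points over all genes tested and -7.56 over the 8 members. With cells thinned to 80000 reads, which left out 1 cell of shCTCF #2, Hmgcs1, Fdft1 and Cyp51 had a lower share in both, against 4.70% of genes.

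The lower mean level can be split into the share of cells with a value and the level in those cells. By means, the second ratio was the larger for 7 members in experiment 1 (all but Idi1) and for 6 in experiment 2 (all but Idi1 and Cyp51). For Hmgcs1, the mean TPM of cells with a value was 416.2 and 282.6 in WT and 59.3 and 145.7 in CTCF-KD cultures, so that in experiment 1 the share of cells was 1.28 times and the level in those cells 7.01 times higher in WT. For Fdps in experiment 1 the 2 ratios were 0.826 and 3.17, and for Cyp51 they were 0.950 and 4.76. By medians of the cells with a value, the level ratios of these 3 genes in experiment 1 were smaller, at 3.76 for Hmgcs1, 2.10 for Fdps and 2.40 for Cyp51. They were larger by medians than by means for Sqle (3.60 and 2.44) and Insig1 (1.96 and 1.76). For Fdft1 in experiment 1 the direction turned, with a level ratio of 2.65 by means and 0.447 by medians. Idi1 went the other way in experiment 2, with ratios of 2.87 for the share of cells and 0.908 for the level in cells with a value, on 50 and 11 reads.

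Cell-to-cell variation was measured as the CV of log2(TPM + 1), pooling both cultures of a condition. A gene was called where its CV difference (CTCF-KD minus WT) lay over 1 SD from the mean difference. This used the 7843 genes that averaged over 1 on that log2 scale, which left out Idi1 and kept 7 members. Hmgcs1 was the only member called, with its CV at 0.365 for WT against 0.618 for CTCF-KD cells, beside 7.68% of genes with an increase and 11.3% with a decrease. The CV of Hmgcs1 was higher within both experiments (0.426 and 0.693 in experiment 1, 0.303 and 0.542 in experiment 2), although in experiment 2 alone it was not called. For the others the WT and CTCF-KD values were 0.475 and 0.544 (Sqle), 0.937 and 0.997 (Fdft1), 0.448 and 0.403 (Fdps), 0.619 and 0.723 (Cyp51), 1.19 and 1.16 (Lss), and 0.181 and 0.200 (Insig1). In all, 5 of the 7 were higher in CTCF-KD cells, against 18.5% of genes, but except for Hmgcs1 the sign of the difference changed between the experiments.

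CV depends on the mean, and the member means were lower in CTCF-KD cells. For Hmgcs1 the log2 level averaged 7.02 in WT but 4.58 in CTCF-KD cells, with SDs of 2.56 and 2.83. The CV expected at these means, from a running median over genes, was 0.331 and 0.576. With the expected CV removed the difference for Hmgcs1 was 0.00835 and 0 members were called. Insig1 stood apart in both conditions: its CV was 0.181 and 0.200 where 0.376 and 0.383 were expected, and its SD was 1.20 and 1.18 on the log2 scale.

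**Figure D3:**
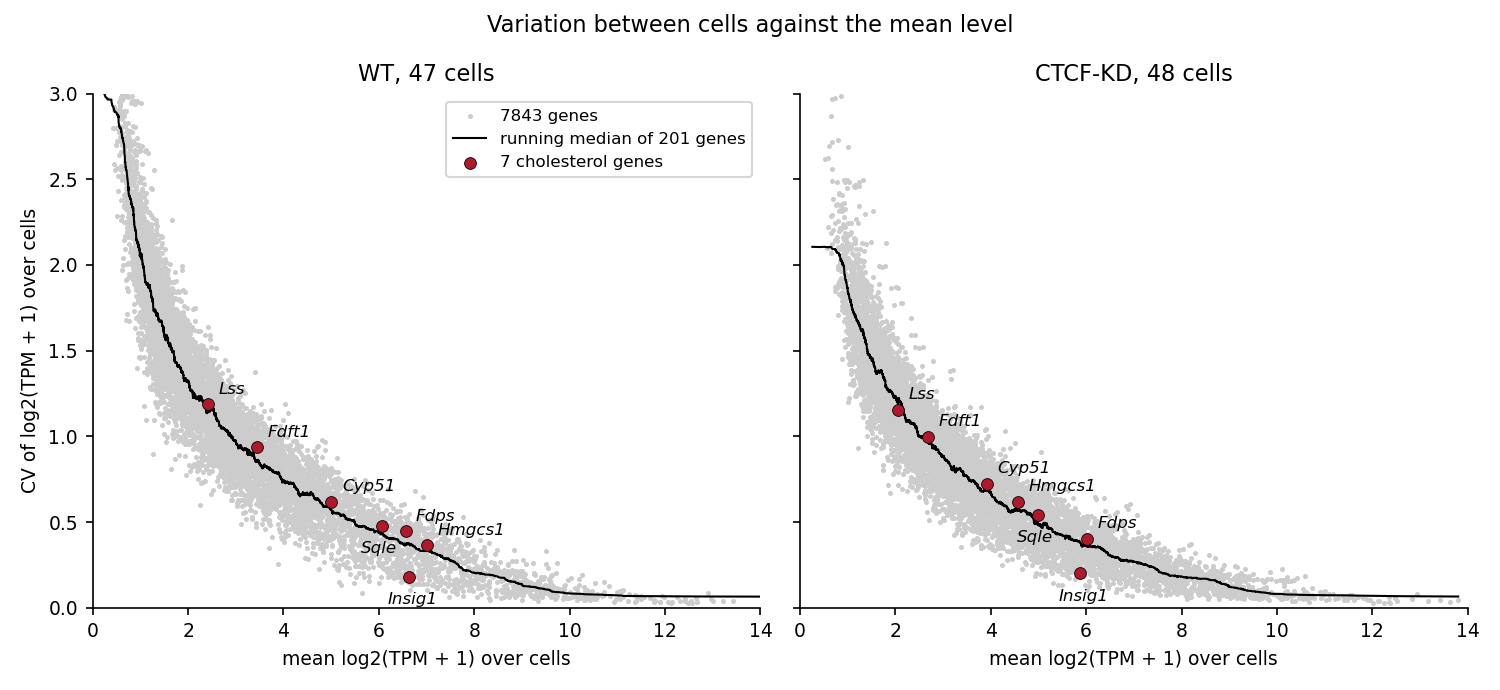
CV of log2(TPM + 1) over cells against the mean, in WT (left) and CTCF-KD cells (right); grey points are 7843 genes, those with a CV above 3 not drawn, and the line is the running median. Hmgcs1 moves left and up along the line from WT to CTCF-KD, and Insig1 lies below the line in both.

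The degree to which members varied together over cells differed by culture. The median Pearson r over the 28 pairs was 0.36 in shLuc #1 (n = 24 cells), 0.18 in shLuc #2 (n = 23), 0.14 in shCTCF #1 (n = 24) and 0.37 in shCTCF #2 (n = 24). Idi1 is not among the 7843 genes, and over the 21 pairs without it the medians were 0.45, 0.11, 0.16 and 0.31, beside 0.02 to 0.04 over all pairs of those genes. Of the 21 pairs, 20, 13, 17 and 18 were above 0 in the same order. The 2 cultures of a condition differed as much as the conditions did. With culture means removed, the median of the 28 pairs stood at 0.29 over 47 WT cells and at 0.27 over 48 CTCF-KD cells. Cells of a culture share a circuit and differ in depth, and no p is given for these values.

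Over all cells Hmgcs1 and Fdps were the closest pair (r = 0.58), with r of 0.65 and 0.45 in the WT cultures and 0.50 and 0.66 in the CTCF-KD cultures. Other pairs were closer in shLuc #2, with Idi1 and Fdps highest at 0.54, and in shCTCF #1, with Cyp51 and Lss at 0.52. Hmgcs1 and Lss had 0.63, 0.37, 0.39 and 0.16, and Hmgcs1 and Cyp51 had 0.32, 0.53, 0.10 and 0.52. Hmgcs1 with Fdft1 was 0.50 among WT cells but 0.17 under CTCF-KD, and Sqle with Cyp51 was 0.16 and 0.46, but with 2 cultures each these were not tested. Sqle and Insig1 were the loosest of the 21 pairs without Idi1 over all cells (r = 0.10). Over all 95 cells, 15 of these 21 pairs lay above the 95th percentile of all gene pairs (0.21), and 11 above the 99th (0.29). In experiment 1 alone 13 and 8 pairs lay above the same percentiles of those cells, and in experiment 2 alone 8 and 3. In single cultures 14, 4, 7 and 8 pairs lay above the 95th and 7, 2, 1 and 3 above the 99th percentile, with the 2 WT cultures first.

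**Figure D4:**
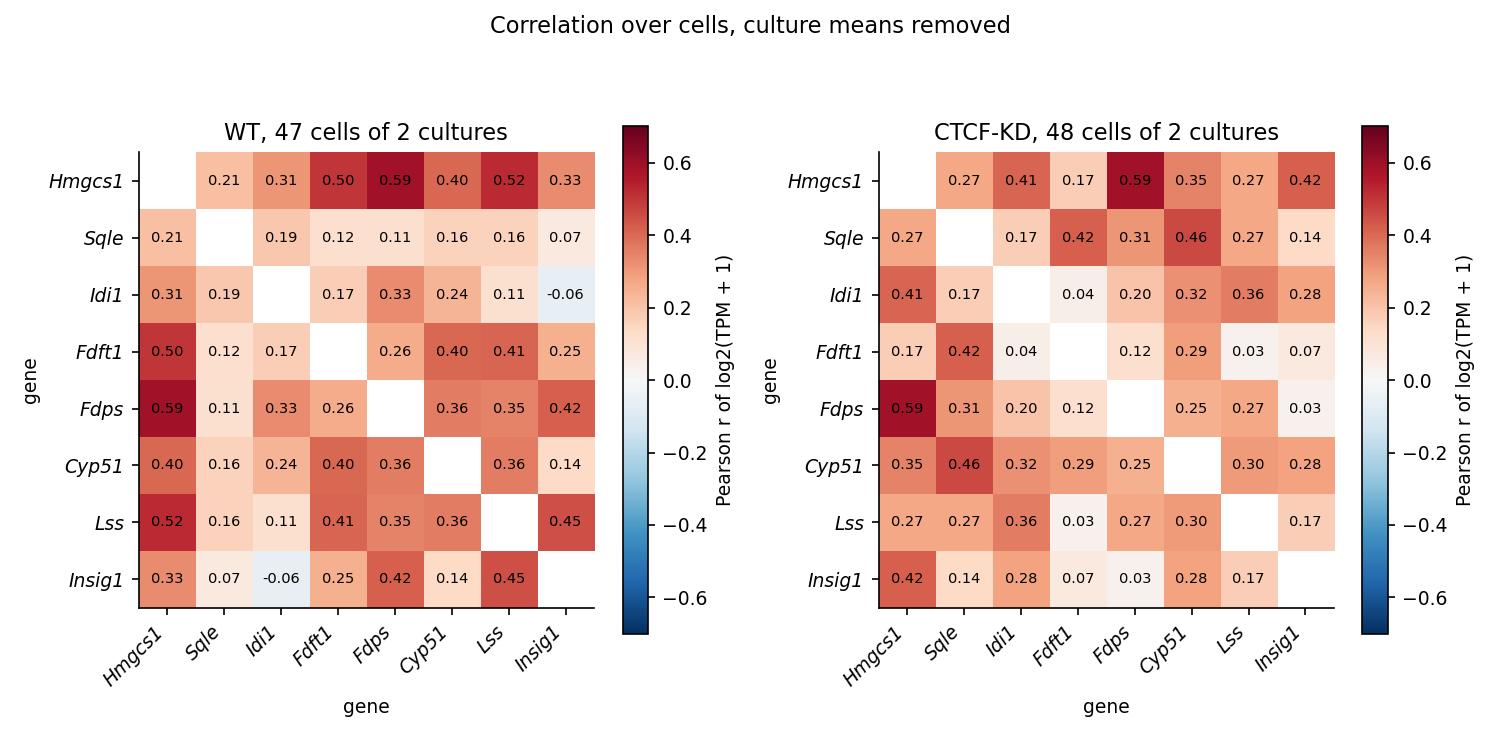
Pearson r of log2(TPM + 1) for each pair of the 8 genes over WT cells (left) and CTCF-KD cells (right), culture means removed; colour runs from blue (negative) to red (positive). Hmgcs1 with Fdps is 0.59 on both sides, and the row of Sqle runs from 0.07 to 0.21 in WT and from 0.14 to 0.46 in CTCF-KD cells.

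The mean level of the members over cells went only weakly with technical measures. Its r with genes detected was 0.24, 0.27, 0.05 and 0.21 in the 4 cultures, and with log2 recovered reads 0.14, 0.17, -0.14 and 0.19. With genes detected removed by regression, the 28 pairs had a median of 0.29 for WT and 0.31 for CTCF-KD. Its r with the mean level of the G1/S genes was 0.25, 0.27, 0.48 and 0.23, and with that of the G2/M genes 0.24, 0.32, 0.05 and 0.00. For Ctcf it was 0.17, 0.44, 0.19 and 0.08.

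Each member was then compared with the mean of the other 7 over all 95 cells, culture means removed. Hmgcs1 had the highest r of 7833 genes (0.63), and Cyp51 (0.51), Fdps (0.50), Lss (0.47) and Fdft1 (0.41) were within the first 7. Sqle (0.35) ranked 27 and Insig1 (0.35) ranked 29, and Idi1 also had r = 0.35. In experiment 2 alone Fdft1 (0.37) ranked 103, Lss (0.25) ranked 871 and Insig1 (0.09) ranked 3334, and in experiment 1 alone Sqle (0.27) ranked 515. Idi1 had r = 0.03 in experiment 1 alone and 0.56 in experiment 2 alone.

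Of the 7832 genes ranked that are not members, Scd1, a desaturase, had the highest r with the mean of the 8 (0.51), with 0.64 and 0.59 in the WT cultures and 0.26 and 0.42 in the CTCF-KD cultures. The next were 4930483K19Rik (0.50), Acsl3, an acyl-CoA synthetase (0.48), Tbc1d31 (0.46), Gsr, glutathione reductase (0.43), Mbd4, a DNA glycosylase (0.43), Pip5k1a, a lipid kinase (0.43), Stard4 (0.41), Cdkn1b, an inhibitor of cyclin-dependent kinases (0.41), and Slc7a5, an amino acid transporter (0.41). The median over all genes was 0.04 and the 99th percentile 0.30. 4930483K19Rik lies antisense to Lss and shares 381 exonic bases with it, so without strand, reads in that stretch, 3.53% of the exonic bases of Lss, cannot be told apart between the 2 genes. The share of the exons of 4930483K19Rik in that stretch was not computed, so how far its r rests on such reads is not known. Ranks were not firm across cultures, with Acsl3 at 0.84 in shLuc #1 and 0.02 in shCTCF #2, and with 5 of the 10 genes again among the first 10 in experiment 1 alone and 2 in experiment 2 alone.

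Levels of these genes did not all move with those of the members. Mean TPM of Scd1 was 105.9 and 81 in WT and 13.8 and 34.9 in CTCF-KD cultures, and Acsl3 (23.7 and 15.1 against 6.05 and 11.9), Tbc1d31 (47.1 and 38.2 against 22.8 and 15.8), Cdkn1b (72.9 and 62 against 46.6 and 39.7) and 4930483K19Rik (12.7 and 9.84 against 5.09 and 5.32) were also lower in both. Gsr was higher in both (17.4 and 16.5 against 26.3 and 32.8). Mbd4 (10.0 and 8.45 against 6.85 and 11.6), Pip5k1a (33.3 and 46.1 against 33.8 and 49.4) and Slc7a5 (23.2 and 14 against 21.8 and 21.6) overlapped. None of them passed limma after adjustment.

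Of all genes ranked, 61.5% had an r above 0 with the mean of the members. By list, all 12 other synthesis enzymes compared were above 0 (median 0.22), and 3 of them (Msmo1, Sc5d and Dhcr7) exceeded the 99th percentile. All 11 fatty acid synthesis genes were above 0 as well (median 0.24), with 4 past that percentile (Scd1, Fads1, Scd2 and Fasn), whereas SREBP regulation had a median of 0.09 with 0 of 10 past it and the non-sterol isoprenoid branch 0.04 with 0 of 10. Of the uptake and transport genes 6 of 7 were above 0 (median 0.11), as were 15 of 16 G1/S genes (median 0.19), all 20 G2/M genes (median 0.12) and 1 of 3 efflux and storage genes (median -0.03). With genes detected removed by regression, r of the G2/M genes ran from -0.05 to 0.22, so not all of them stayed above 0. Tm7sf2 (-0.01) of the synthesis enzymes and Acaca (-0.04) and Elovl6 (-0.02) of the fatty acid genes also fell below 0. The other genes compared in these 2 lists stayed above 0.

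**Figure D5:**
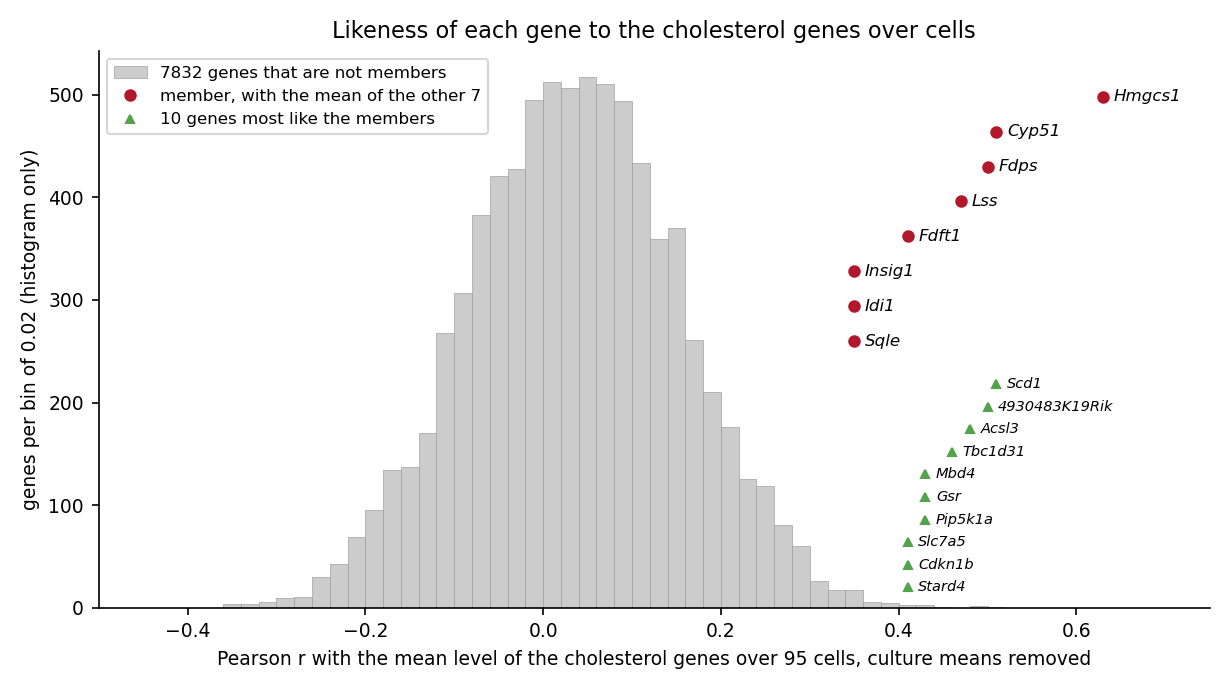
Pearson r of each gene with the mean level of the cholesterol genes over 95 cells, culture means removed; the histogram holds 7832 other genes, circles are members against the mean of the other 7, and triangles are the 10 genes most like them (heights of circles and triangles carry no value). Every member lies at 0.35 or above, beyond the 99th percentile of the other genes at 0.30.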

How the data were processed

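Reads of each cell had been mapped to GRCm38 (STAR, unique hits only) and assigned to genes (HTSeq) by the authors, who deposited TPM values of all 96 cells. Here, cells under 3000 genes were left out, and a gene was tested if 2 or more cells exceeded 1 on the log2(TPM + 1) scale. Culture means, as log2(mean TPM + 1), were compared with limma 3.58.1 (R 4.3.3, trend, Benjamini-Hochberg). It was also run on simulated cultures, each drawn from the cells of the same-numbered WT culture. Random genes were raised in those that stood for CTCF-KD. There limma recovered the sizes of the changes made but called none of them. Same-numbered simulated cultures differed otherwise only by the drawing of cells, unlike the real ones. A missed threshold thus does not show that levels did not differ. The edgeR test of the study was not run, since the deposited values are TPM. Whole reads were recovered from the TPM steps (504605 values, 100% whole at a tolerance of 0.001 reads) and served for depth, thinning and RPM, which entered limma as an alternative. No molecular identifiers are described, so intervals cover counting error only. No doublet caller was run. The culture number pairs the cultures, since the study's methods give it as the experiment, and deviations of same-numbered cultures correlated at 0.275 over 7843 genes. The labels do not say that cultures were independent beyond this, so p-values measure the spread between cultures. Coordinates are from GENCODE M21, and near-identical copies were sought among its transcripts with BLAST. The members, gene lists and motifs were chosen with earlier results of these data known. The genes named are the members, Ctcf, a fixed set of pathway genes, and the 10 genes with the highest r. Further genes of the lists were named after their values were seen, and overlapping genes and near-identical copies are named from the annotation. Some genes are not reported here and were left out of the lists and rankings. Alternatives are given in the closing section.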

Additional observations from a re-analysis of the deposited data

Results flagged for a closer look

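With 1 culture per condition in each experiment, results were listed here where the difference between CTCF-KD and WT had opposite signs in experiment 1 and experiment 2; none of these differences between the experiments was tested. The log2 change of the level was -1.85 and 0.27 for Ctcf, 0.12 and -0.74 for Ebp, -1.24 and 0.03 for Srebf1, and 0.34 and -2.17 for Scap. It was -1.36 and 0.34 for Stard4, -0.60 and 0.13 for Fasn, -0.49 and 0.41 for Mbd4, and -0.09 and 0.58 for Slc7a5. No level of a member was among them.

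The CV difference of 6 members changed sign: 0.205 and -0.0686 for Sqle, -0.0323 and 0.148 for Fdft1, -0.248 and 0.167 for Fdps, -0.0670 and 0.246 for Cyp51, -0.300 and 0.276 for Lss, and -0.00942 and 0.0530 for Insig1. In 5 of these 6, all but Sqle, the difference was negative in experiment 1 and positive in experiment 2. The share of cells with a value differed by -8.33 and 5.07 percentage points for Sqle, 16.7 and -12.3 for Fdps, 4.17 and -20.3 for Cyp51, and 4.17 and -19.2 for Lss.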

How the results depend on the processing

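The members' median log2 change stayed negative under every alternative run. It was -0.77 with the mean over cells of log2(TPM + 1), where 46 genes and 0 members were called, and -0.80 to -1.24 when each culture was left out in turn. Of 111 single member changes under the alternatives 109 were below 0; Idi1 ranged from -1.67 to 0.44 when a culture was left out, turning positive without shLuc #2, and was 0 with the median over cells, an alternative chosen after seeing the data. With the replicate block 0 genes were called, the median change was the same -1.14, and no call changed. Members lower in both CTCF-KD cultures numbered from 5 with the median over cells, against 4.28% of genes, to 8 without shLuc #1 or shCTCF #2, against 37.9% and 32.3%. Members with a lower share of cells in both numbered 1 at TPM above 10 (7.09% of genes), and the share of Lss turned to 3.89 points after thinning. Members with increased CV numbered 2 on the TPM scale (8.94% of genes), 2 in experiment 1 alone (7.35%), 0 in experiment 2 alone (7.98%) and 0 with the expected CV removed (8.59%). Of the 10 genes most like the members, 6 were shared with Spearman's rho in place of Pearson's r, and 5 in experiment 1 and 2 in experiment 2, the latter alternatives also chosen after seeing the data. Depth was lowest in shCTCF #2, where Idi1 rests on 11 reads.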
